A study of Oryza sativa Japonica Group with 4 samples.

Results

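The 8 genes described here are named for enzymes that carry nitrogen from nitrate into amino acids in rice: a nitrate reductase (NIA1), the ferredoxin-nitrite reductase (NiR), 3 glutamine synthetases (GS1;1, GS1;2 and GS2), 2 glutamate synthases (NADH-GOGAT1 and Fd-GOGAT) and an alanine aminotransferase (AlaAT1). They were taken by gene identifier from a deposited table of 33744 genes, and all 8 were found with a name or description of the enzyme. The NADH-GOGAT1 row matched by name only: it spans 277 bp and is described as a non-protein coding transcript. Levels were measured by RNA-seq in leaves of Oryza sativa (Japonica group) seedlings aged 14 days, all after 6 h of drought. There were 2 libraries of OE13-2KR/oswox13-1, labelled as the drought sensitive type, and 2 of OE13, labelled as the drought resistant type. The OE13-2KR/oswox13-1 line carries, by its name, the 2KR form as well as the oswox13-1 background, and what each contributes cannot be told apart here. No wild-type and no watered plants were analysed here, so every difference is between 2 drought-treated lines. The labels do not say that the libraries of a line came from separate plants, and p-values therefore measure only the spread between libraries, which may be technical.

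In leaves, nitrate is reduced to nitrite by nitrate reductase in the cytosol, and nitrite to ammonium by nitrite reductase in the plastid with electrons from ferredoxin. Ammonium is joined to glutamate by glutamine synthetase, and glutamate synthase passes the amide group on to 2-oxoglutarate, so that the pair forms a cycle (the GS/GOGAT cycle). In green cells the plastid enzymes GS2 and Fd-GOGAT also recover the ammonium that photorespiration releases, while the cytosolic GS1 enzymes and NADH-GOGAT are known for primary assimilation in roots and for moving nitrogen through the vascular tissue. Alanine aminotransferase moves an amino group between glutamate and pyruvate.

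Values are FPKM, fragment counts per gene length and library size, as deposited. They summed to between 931335 and 941593 per library, with 3973 to 4819 genes listed at 0, and the read depth is unknown. The leaf markers (Rubisco small subunit, Rubisco activase and light-harvesting proteins) were present, with 23 of 26 over 1 FPKM in every library and 1 listed at 0 in all of them. Their summed FPKM in replicates 1 and 2 was 24200 and 12800 for OE13-2KR/oswox13-1, against 36600 and 19700 for OE13. The 13 seed storage protein genes summed to 2.31 to 5.0 FPKM, with 3 listed at 0 in all libraries, and 19 markers of dividing cells summed to 324 to 452 FPKM. The root silicon transporter gene LSI1, the only root marker found, stood at 18.7 to 27.1 FPKM. No row was named or described as OsWOX13, so the targeted gene was not checked against the labels.

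The order of the 8 genes by mean FPKM over the 4 libraries ran from Fd-GOGAT at 381, rank 318 of the 33744 genes, through GS2 at 103, GS1;1 at 62.4, NiR at 44.5, AlaAT1 at 28.5, the NADH-GOGAT1 row at 12.5 and GS1;2 at 8.08, to NIA1 at 5.61. Fd-GOGAT lay above GS2 in every library, and the AlaAT1, NADH-GOGAT1 and GS1;2 levels also followed each other without overlap. Neighbours whose library values overlapped were GS2 and GS1;1, GS1;1 and NiR, NiR and AlaAT1, and GS1;2 and NIA1.

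**Figure D1:**
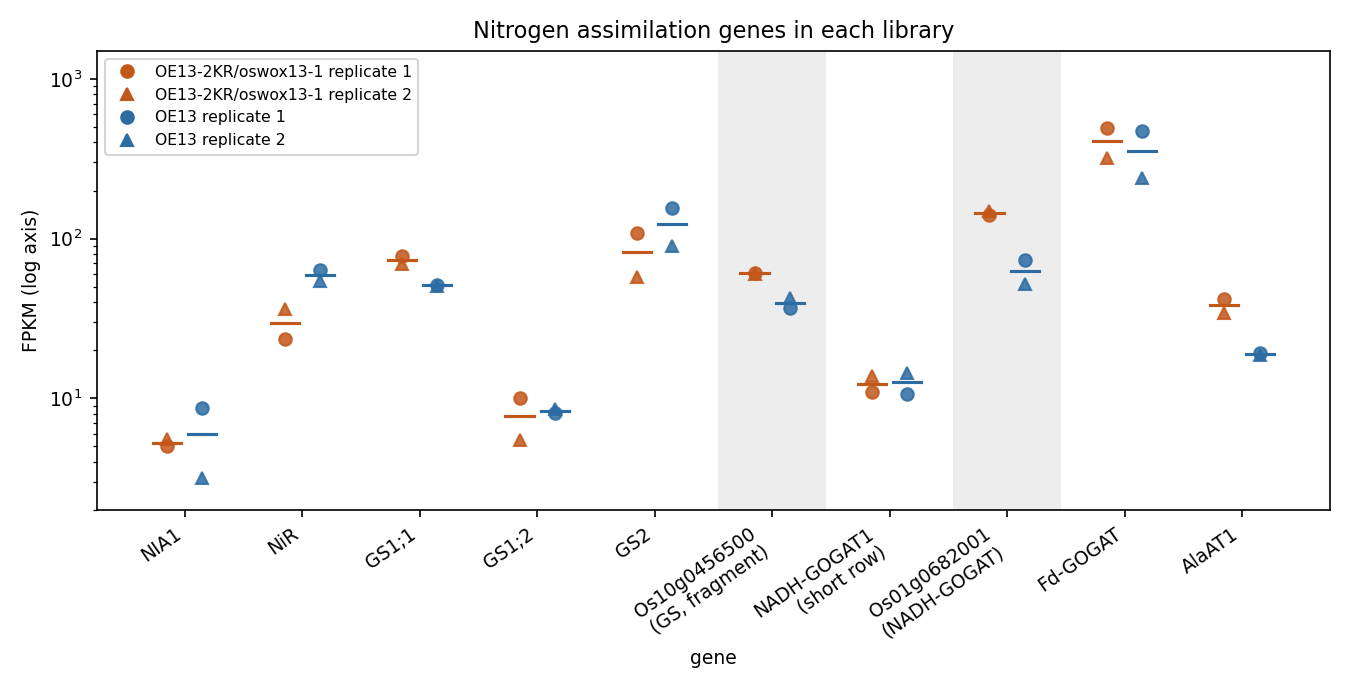
FPKM of the 8 nitrogen assimilation genes in each library on a log axis, with orange for OE13-2KR/oswox13-1, blue for OE13, circles for replicate 1, triangles for replicate 2, short lines for the mean of 2 libraries and grey bands for 2 related rows, Os10g0456500 and Os01g0682001. NiR lies lower, and GS1;1 and AlaAT1 higher, in both OE13-2KR/oswox13-1 libraries than in both OE13 libraries, while the points of the other 5 genes overlap between the lines.

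Against OE13, NiR stood lower and AlaAT1 and GS1;1 stood higher in OE13-2KR/oswox13-1, each without overlap between the libraries of the lines, and the other 5 genes overlapped. None of the 8 passed the adjusted test. At an unadjusted p under 0.05 in limma (log2(FPKM + 1), OE13-2KR/oswox13-1 minus OE13), 2 of 8 were higher, against 7.995% of the 20174 genes tested, and 1 of 8 was lower, against 11.97%. In either direction that is 3 of 8 against 19.97%. Libraries of the lines did not overlap for 2 higher and 1 lower of the 8, against 23.4% and 32.8% of all genes tested, so the 3 of 8 in either direction lies below the 56.2% of all genes. At a limma adjusted p under 0.05, 0 of 8 passed, against 1 gene of all those tested (0.00496%). The median log2 difference of the 8 was -0.02 and that of all genes -0.08. The direction of the background depended on scaling: 40.04% of the genes at an unadjusted p under 0.05 were higher as deposited, 52.1% after median-ratio rescaling and 52.8% after quantile normalisation, which moved the median of all genes from -0.08 to 0.03. All 8 genes passed the filter of a mean of at least 1 FPKM.

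**Figure D2:**
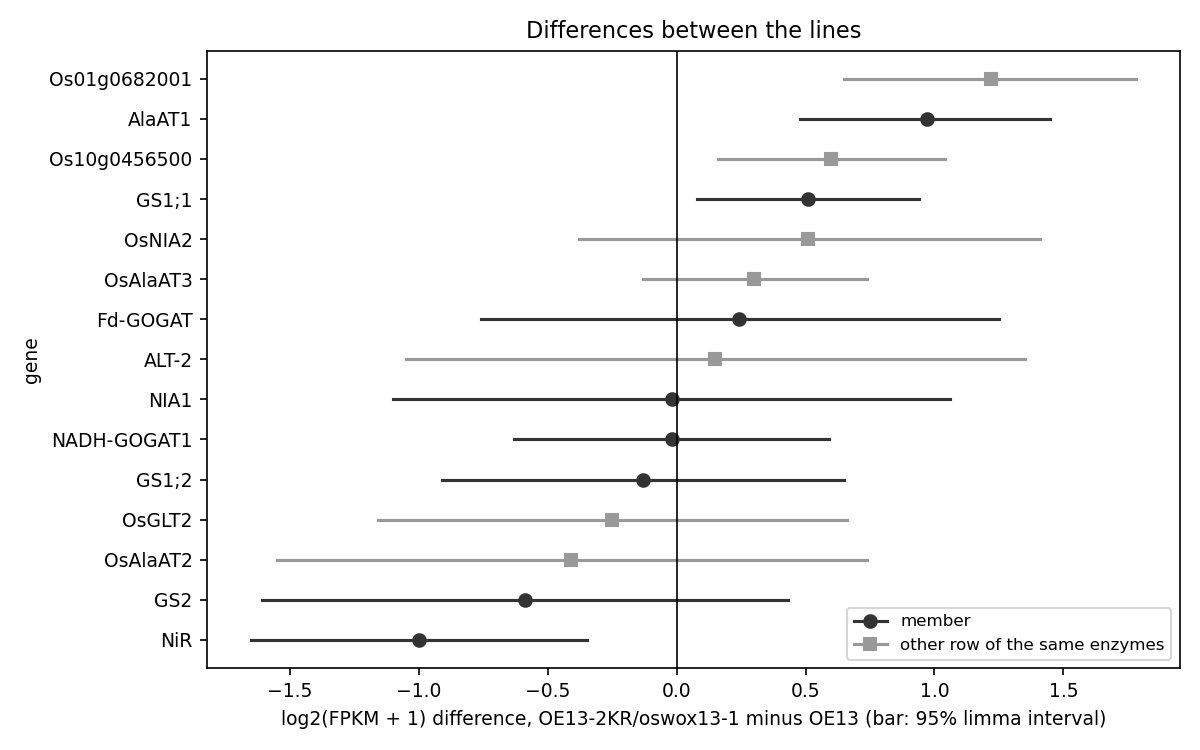
Difference in log2(FPKM + 1), OE13-2KR/oswox13-1 minus OE13, for the 8 genes (dark circles) and the other tested rows of the same enzymes (grey squares). Points give the limma estimate and bars its 95% interval from 2 libraries per line. The intervals of NiR (-1.65 to -0.35), GS1;1 (0.08 to 0.94) and AlaAT1 (0.48 to 1.45) do not reach 0 before adjustment over all genes, and the other 5 of the 8 cross it. Of the grey rows, Os01g0682001 (0.65 to 1.78) and Os10g0456500 (0.16 to 1.04) do not reach 0, and the rest cross it.

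NIA1, the nitrate reductase of the 8 and the entry step, showed no separation of the lines. NIA1 (Os08g0468100, listed as OsNR1; chromosome 8, 23033973 to 23038585, plus strand, as in the deposited table) stood at 5.03 (replicate 1) and 5.53 FPKM (replicate 2) for OE13-2KR/oswox13-1, against 8.71 and 3.17 FPKM for OE13. The OE13 libraries lay on both sides of the other line, and mean FPKM was 5.28 ± 0.353 against 5.94 ± 3.92 (SD, n = 2 each). The log2 difference was -0.02 (SE 0.43, 95% interval -1.10 to 1.06, limma adjusted p = 0.982). Leaving out OE13-2KR/oswox13-1 replicate 1 turned its sign, to 0.04, as did leaving out OE13 replicate 1, to 0.59. It also turned with scaling, to 0.06 after median-ratio rescaling and 0.15 after quantile normalisation. A further nitrate reductase gene on the same chromosome, OsNIA2 (Os08g0468700), stood at 7.69 and 8.99 FPKM against 8.01 and 3.73 (log2 difference 0.51, SE 0.35, limma adjusted p = 0.441). That difference was 0.05 on leaving out OE13 replicate 2 and 0.98 on leaving out OE13 replicate 1. Both rows held their lowest value in OE13 replicate 2. The row listed as OsNIA1, Os02g0770800, is a different gene, below the filter with a mean of 0.841 FPKM. It stood at 0.0464 and 0.515 FPKM against 2.18 and 0.625 FPKM, without overlap, and was not tested. Os01g0693700 was at no more than 0.259 FPKM. Similar copies can share reads, and the sources used here do not say how the authors' counting treated them.

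Nitrite reductase, which removes the toxic nitrite that nitrate reductase makes, was the only one of the 8 that stood lower without overlap. NiR (Os01g0357100; chromosome 1, 14446913 to 14453454, plus strand) stood at 23.4 (replicate 1) and 36.1 FPKM (replicate 2) for OE13-2KR/oswox13-1, against 64.0 and 54.5 FPKM for OE13. The lower OE13 library still lay above the higher library of the other line, and the OE13 mean was 1.99 times the other. Mean FPKM was 29.7 ± 8.97 against 59.3 ± 6.71 (SD, n = 2 each), a log2 difference of -1.0 (SE 0.26, 95% interval -1.65 to -0.35, unadjusted p = 0.0106, adjusted p = 0.194, limma). When any 1 library was left out the difference lay between -1.30 and -0.70, and without OE13 replicate 1 it no longer had an unadjusted p under 0.05 (-0.88, limma unadjusted p = 0.0572). A gene on the other strand, Os01g0357150, covers 93.5% of NiR and is listed at 0 in all 4 libraries, and the sources used here do not say whether counting used strand. The other rows described as nitrite reductase, Os02g0765900 and Os01g0357500, were at 0, 0, 0 and 3.95 FPKM and at no more than 0.049 FPKM. In bulk leaf, fewer cells with a transcript and less of it per cell cannot be told apart, for this gene or any below.

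Among the glutamine synthetases the cytosolic GS1;1 stood higher and the plastid GS2 lower on average in OE13-2KR/oswox13-1, but the GS2 libraries overlapped. GS1;1 (Os02g0735200, listed as OsGS1; chromosome 2, 30674780 to 30678659, minus strand), the cytosolic isozyme described for shoots, stood at 77.5 and 69.7 FPKM against 51.6 and 50.8 FPKM. Both OE13-2KR/oswox13-1 libraries lay above both OE13 libraries, whose values were within 1 FPKM of each other. Mean FPKM was 73.6 ± 5.50 against 51.2 ± 0.574 (SD, n = 2 each), 1.44 times apart. The log2 difference was 0.51 (SE 0.17, 95% interval 0.08 to 0.94, unadjusted p = 0.0274, adjusted p = 0.217, limma), and it lay between 0.44 and 0.59 when any 1 library was left out. Its unadjusted limma p stayed under 0.05 without OE13-2KR/oswox13-1 replicate 2 (0.038), but not without replicate 1 of that line (0.0853), OE13 replicate 1 (0.107) or OE13 replicate 2 (0.123), nor with a replicate block (0.0533).

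GS2 (Os04g0659100, listed as OsGLN2; chromosome 4, 33624428 to 33631025, minus strand), the chloroplast isozyme, stood at 108 (replicate 1) and 57.2 FPKM (replicate 2) for OE13-2KR/oswox13-1, against 156 and 90.3 FPKM for OE13. Replicate 1 was the higher library in each line, and OE13-2KR/oswox13-1 replicate 1 lay above OE13 replicate 2. Mean FPKM was 82.6 ± 36.0 against 123 ± 46.7 (SD, n = 2 each), a log2 difference of -0.59 (SE 0.40, 95% interval -1.61 to 0.43, limma adjusted p = 0.440). The difference was -0.14 when OE13-2KR/oswox13-1 replicate 2 was left out and -0.20 when OE13 replicate 1 was, while leaving out replicate 1 of OE13-2KR/oswox13-1 gave -1.04 and replicate 2 of OE13 gave -0.98.

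GS1;2 (Os03g0223400, listed as GLN1; chromosome 3, 6457915 to 6462146, minus strand), a cytosolic isozyme known in rice for ammonium assimilation in roots, stood at 10.1 and 5.51 FPKM against 8.05 and 8.62 FPKM. The 2 OE13 libraries lay between those of the other line, and the log2 difference was -0.13 (SE 0.31, limma adjusted p = 0.828). Leaving out OE13-2KR/oswox13-1 replicate 2 gave 0.26, and the value was 0.02 after quantile normalisation. GS1;3 (Os03g0712800, also listed as OsGS1), known as a grain isozyme, was at 0.159 to 0.755 FPKM and below the filter.

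A further row, Os10g0456500, is described as similar to a glutamine synthetase fragment. It stood at 60.8 and 60.4 FPKM against 37.0 and 42.5 FPKM, which is 0.785, 0.866, 0.717 and 0.837 times GS1;1 in the same libraries. Its log2 difference was 0.60 (SE 0.17, limma adjusted p = 0.205), without overlap. A gene on the other strand at no more than 0.287 FPKM covers 95.3% of it, and whether it shares reads with GS1;1 was not tested.

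The shares of GS2 and GS1;1 in the FPKM summed over the 5 glutamine synthetase rows did not overlap between the lines. The sum itself did. The sum was 257 and 194 FPKM for OE13-2KR/oswox13-1, against 253 and 192 FPKM for OE13, so libraries of the same replicate number lay closer than libraries of the same line. GS2 made up 42.1% and 29.6% of it for OE13-2KR/oswox13-1, against 61.7% and 46.9% for OE13. GS1;1 made up 30.2% and 36.0% against 20.4% and 26.4%. The fragment row Os10g0456500, which may share reads with GS1;1, made up 23.7% and 31.2% against 14.6% and 22.1%. None of these shares overlapped between the lines, but they are parts of 1 sum and not separate observations. Among single genes tested, 56.2% did not overlap, and the rate for shares was not computed.

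The glutamate synthases include a row that needs care. NADH-GOGAT1 (Os01g0681900, listed as OsGLT1; chromosome 1, 28091236 to 28091512, minus strand) carries the gene's name but spans 277 bp and is described as a non-protein coding transcript. It stood at 10.9 and 13.8 FPKM against 10.7 and 14.5 FPKM, with full overlap. The log2 difference was -0.02 (SE 0.24, 95% interval -0.63 to 0.59, limma adjusted p = 0.969). Leaving out OE13-2KR/oswox13-1 replicate 1 gave 0.14 and leaving out OE13 replicate 2 gave 0.18, and the value was 0.07 after median-ratio rescaling and 0.11 after quantile normalisation.

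On the same strand 7334 bp away, with 0 listed genes between, lies Os01g0682001 (chromosome 1, 28098847 to 28102930), described as similar to NADH-dependent glutamate synthase. It stood at 141 (replicate 1) and 149 FPKM (replicate 2) for OE13-2KR/oswox13-1, against 73.1 and 52.0 FPKM for OE13. Every OE13-2KR/oswox13-1 library lay above every OE13 library, with means of 145 ± 5.65 and 62.5 ± 15 (SD, n = 2 each). The log2 difference was 1.22 (SE 0.22, 95% interval 0.65 to 1.78, unadjusted p = 0.00232, adjusted p = 0.187, limma). It lay between 0.97 and 1.46 when any 1 library was left out. The FPKM of this row was 12.9 and 10.8 times that of the OsGLT1 row for OE13-2KR/oswox13-1, against 6.81 and 3.59 times for OE13. Whether the 2 rows are pieces of 1 gene was not tested.

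Fd-GOGAT (Os07g0658400, listed as OsGLU; chromosome 7, 27723089 to 27738212, minus strand), the ferredoxin-dependent enzyme of the chloroplast, stood at 495 (replicate 1) and 319 FPKM (replicate 2) for OE13-2KR/oswox13-1, against 471 and 239 FPKM for OE13. Replicate 1 was again the higher library in each line, and the lines overlapped. Mean FPKM was 407 ± 124 against 355 ± 164 (SD, n = 2 each), a log2 difference of 0.24 (SE 0.40, 95% interval -0.76 to 1.25, limma adjusted p = 0.750). Leaving out OE13-2KR/oswox13-1 replicate 1 gave -0.07, and leaving out OE13 replicate 2 gave -0.25. OsGLT2 (Os05g0555600), a second NADH-dependent glutamate synthase gene, stood at 24.8 and 45.2 FPKM against 49.9 and 32.3 FPKM (log2 difference -0.25, limma adjusted p = 0.708), and its sign turned on leaving out OE13-2KR/oswox13-1 replicate 1 (0.17) or OE13 replicate 1 (0.05). The short row Os04g0490000 was at 0.492 to 1.15 FPKM.

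AlaAT1 (Os10g0390500, listed as ALAAT; chromosome 10, 12968039 to 12974099, plus strand) had the smallest unadjusted p of the 8. Alanine aminotransferases are known for alanine build-up in plants short of oxygen and for the effect of their overexpression on nitrogen use in cereals. The gene stood at 42.1 (replicate 1) and 34.2 FPKM (replicate 2) for OE13-2KR/oswox13-1, against 19.1 and 18.8 FPKM for OE13. All values of the first line lay above those of the second, and the means, 38.2 ± 5.55 and 18.9 ± 0.228 (SD, n = 2 each), were 2.02 times apart. The log2 difference was 0.97 (SE 0.19, 95% interval 0.48 to 1.45, unadjusted p = 0.00337, adjusted p = 0.187, limma), and it lay between 0.82 and 1.11 when any 1 library was left out.

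Of the 5 other alanine aminotransferase rows, 3 were tested and had log2 differences from -0.41 to 0.30. Whether these differ from that of AlaAT1 was not tested. ALT-2 (Os07g0108300), the row with the highest level, stood at 508 and 283 FPKM against 513 and 228 FPKM, with the higher value in replicate 1 of each line. Its log2 difference was 0.15 (limma adjusted p = 0.879), and -0.43 without OE13 replicate 2 or -0.27 without OE13-2KR/oswox13-1 replicate 1. OsAlaAT3 (Os07g0617800) stood at 47.6 and 43.5 FPKM against 35.5 and 38.0 FPKM, without overlap (log2 difference 0.30, SE 0.17, limma adjusted p = 0.370). OsAlaAT2 (Os03g0183600) was at 0.254 to 1.94 FPKM (-0.41, limma adjusted p = 0.629, and 0.21 without OE13-2KR/oswox13-1 replicate 2), and OsAlaAT4, the next row to AlaAT1 on chromosome 10, was at 0.429 to 1.09 FPKM and OsEnS-128 at 0.22 to 0.569 FPKM, both under the filter. AlaAT1 was a minor part of the family's summed FPKM of 600 and 362 in the OE13-2KR/oswox13-1 libraries, against 571 and 287 in OE13.

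Ratios of 2 enzymes within a library do not depend on any 1 factor by which that library was scaled. Linear ratios are given first and the difference between lines on the log2 scale after them. GS1;1 over GS2, cytosolic over plastid, was 0.717 and 1.22 for OE13-2KR/oswox13-1, against 0.33 and 0.563 in OE13, a difference of 1.12 that was 0.73 without OE13-2KR/oswox13-1 replicate 2 and also without OE13 replicate 1. GS2 over Fd-GOGAT, the pair of plastid enzymes, was 0.218 and 0.179 against 0.332 and 0.378, a difference of -0.84. AlaAT1 over GS2 was 0.389 and 0.598 against 0.122 and 0.208, a difference of 1.60.

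The ratio of NIA1 over NiR, the enzymes that make and remove nitrite, was 0.215 and 0.153 against 0.136 and 0.0582, a difference of 1.03 that moved to 0.42 on leaving out OE13 replicate 2 and to 1.64 on leaving out OE13 replicate 1. In these 4 ratios the lines did not overlap, and each gave p = 0.333 in a two-sided exact permutation test, the smallest that 2 against 2 libraries allow. Among single genes tested, 56.2% did not overlap between the lines, and the share for ratios of other genes was not computed. The 4 ratios are not separate observations, as GS2 enters all of them but NIA1 over NiR. The ratio of the NADH-GOGAT1 row over Fd-GOGAT overlapped, with a difference of -0.26 (exact permutation p = 0.667) that turned to 0.22 on leaving out OE13-2KR/oswox13-1 replicate 1 and to 0.44 on leaving out OE13 replicate 2. With the neighbouring row Os01g0682001 in its place, a choice made after its values were seen, the ratio was 0.284 and 0.466 against 0.155 and 0.217, without overlap.

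**Figure D3:**
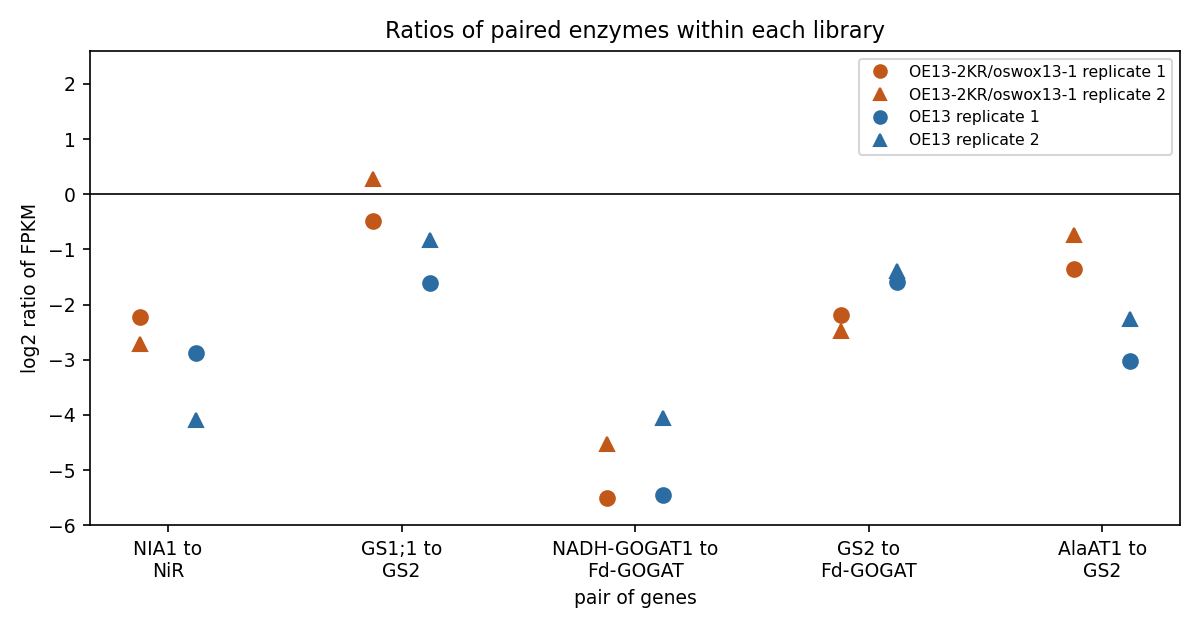
Within-library log2 FPKM ratios of enzyme pairs, with 1 point per library for OE13-2KR/oswox13-1 and OE13. The lines do not overlap for GS1;1 over GS2, GS2 over Fd-GOGAT, AlaAT1 over GS2 and NIA1 over NiR, and they overlap for the NADH-GOGAT1 row over Fd-GOGAT.

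The plastid enzymes GS2 and Fd-GOGAT differed as much between the libraries of a line as between the lines. GS2 was 1.89 times higher in replicate 1 than in replicate 2 of OE13-2KR/oswox13-1 and 1.73 times in OE13, and Fd-GOGAT was 1.55 and 1.97 times higher. ALT-2 (1.79 and 2.25) and 2 photorespiratory glycine cleavage genes, Os06g0611900 for the P protein (1.75 and 1.86) and OsGDCH for an H protein (2.31 and 1.95), split the same way. In all, 2 of 8 members (25.0%) and 3 of 9 glycine cleavage and serine hydroxymethyltransferase rows (33.3%) were over 1.5 times higher in replicate 1 of both lines, against 607 of the 20174 genes (3.01%). The summed leaf markers given above were also higher in replicate 1 of each line, and their part in this was not tested. The replicate numbers share no stated source, so the split is a description of these 4 libraries.

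**Figure D4:**
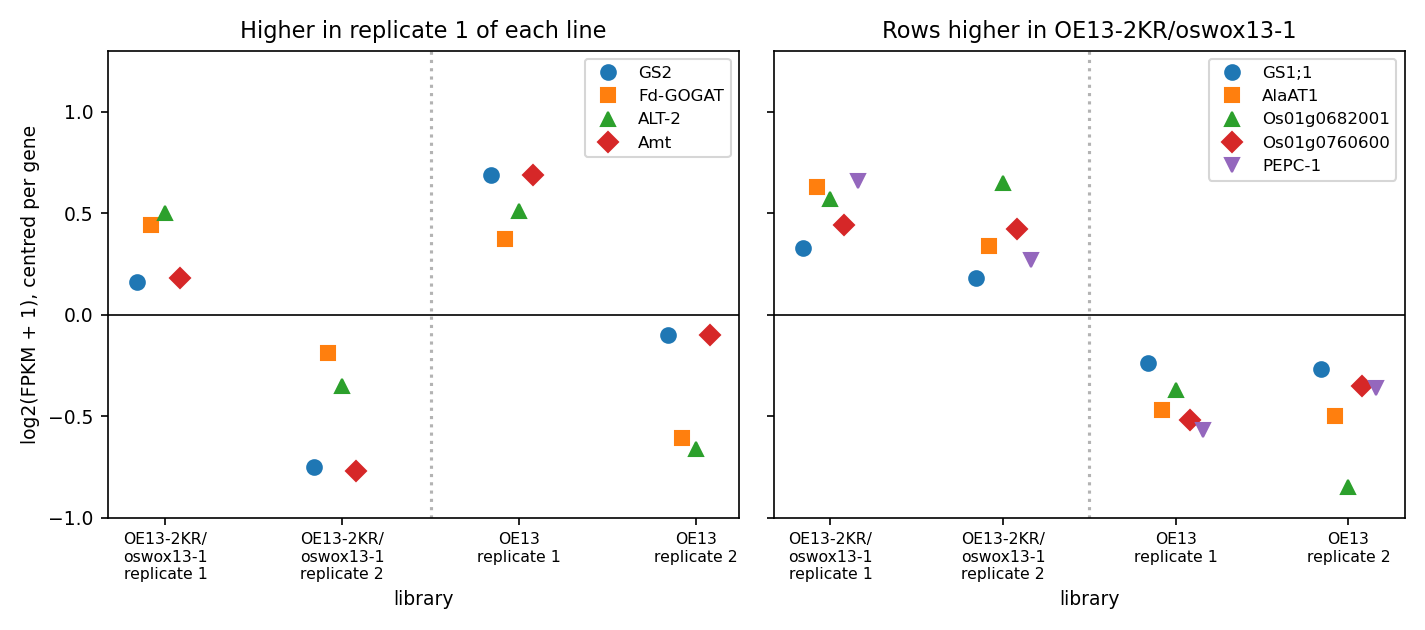
log2(FPKM + 1) of single rows in the 4 libraries, centred on each gene's mean. On the left GS2, Fd-GOGAT, ALT-2 and the aminomethyltransferase gene Amt are higher in replicate 1 than in replicate 2 of each line, and on the right GS1;1, AlaAT1, Os01g0682001, Os01g0760600 and PEPC-1, shown because they stood higher in OE13-2KR/oswox13-1, lie above 0 in both of its libraries and below 0 in both OE13 libraries.

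Likeness was measured as the root mean square difference of centred log2(FPKM + 1) over the 4 libraries, within the wider nitrogen list and among the 8. Counts of genes as near include the nearest gene itself. GS2 was nearest to Amt (Os04g0623800), the aminomethyltransferase of glycine cleavage, at 0.0144. Of all 20173 other tested genes 1 was as near, Amt itself. Fd-GOGAT was nearest to ALT-2 at 0.111, with 35 genes as near, and AlaAT1 to the phosphoenolpyruvate carboxylase gene PEPC-1 at 0.0898, with 32. GS1;1 was nearest to Osppc2b, of the same carboxylase family, at 0.0562, with 67. Within the 8, AlaAT1 and GS1;1 were the nearest pair at 0.233, yet 683 tested genes were as near to AlaAT1. With 4 libraries, many genes share a pattern.

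The wider list held 97 other genes of nitrogen and supporting metabolism, picked by words in the deposited description, of which 78 were tested. Of these, 38 had a positive and 40 a negative log2 difference, against 8712 and 11462 of all 20174 genes tested. The median of the wider list was -0.03 (all genes -0.08). At an unadjusted p under 0.05, 13 were higher (16.7%, against 7.995% of all genes tested) and 8 lower (10.3%, against 11.97%), and 0 passed the limma adjusted test. The lower share is near that of all genes.

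Carbon skeletons reach the GS/GOGAT cycle through several enzymes and transporters, whose rows went both ways. Of 4 tested phosphoenolpyruvate carboxylase rows, whose product refills the organic acids drawn off for amino acids, 3 were higher at an unadjusted p under 0.05, a level that 7.995% of all genes tested reached, and PEPC-2 had a log2 difference of -0.19 with overlap. PEPC-1 (Os02g0244700) stood at 118 and 90.0 FPKM against 49.7 and 57.5 FPKM (log2 difference 0.94, SE 0.21, limma adjusted p = 0.194). Osppc (Os08g0366000) stood at 206 and 124 against 101 and 72.6 FPKM, and its log2 difference of 0.89 was 0.53 on leaving out OE13-2KR/oswox13-1 replicate 1 (limma unadjusted p = 0.129), while leaving out OE13 replicate 2 gave an unadjusted p of 0.139. Osppc2b stood at 18.3 and 17.9 against 12.2 and 11.5 FPKM (0.57, limma unadjusted p = 0.0237). It was no longer under 0.05 when any 1 library was left out (limma unadjusted p from 0.0504 to 0.13) or with the replicate block (0.0508). Genes on the other strand cover 89.2% to 94.3% of these 3.

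The row described as similar to a 2-oxoglutarate/malate translocator, Os05g0208000, stood at 236 and 232 FPKM against 120 and 119 FPKM (log2 difference 0.97, SE 0.17, limma adjusted p = 0.187). Its description names no cell compartment. A cytoplasmic aspartate aminotransferase row, Os01g0760600, stood at 371 and 366 FPKM against 191 and 215 FPKM (log2 difference 0.86, SE 0.18, limma adjusted p = 0.187). The NADP-isocitrate dehydrogenase row Os01g0654500, which makes 2-oxoglutarate, stood at 198 and 236 FPKM against 146 and 146 FPKM (0.56, SE 0.18, limma adjusted p = 0.215). In these 3 rows both OE13-2KR/oswox13-1 libraries lay above both OE13 libraries, as in 23.4% of all genes tested. The 3 were named for their small p, so this separation adds no support. The other 5 translocator rows lay between -0.49 and 0.41 on the log2 scale, the other 3 aspartate aminotransferase rows between -0.04 and 0.31, and the other tested isocitrate dehydrogenase row, Os01g0248400, at -0.02, all at an unadjusted p over 0.05. Genes on the other strand, at up to 68.3 FPKM, cover 70.0% of Os01g0248400, whose mean was 45.6 FPKM. Whether its value holds their reads was not tested.

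Ferredoxin hands electrons to NiR and Fd-GOGAT. The 16 tested rows with ferredoxin in their description are a wider set, which also holds the mitochondrial adrenodoxin-like reductase OsISC21 and proteins with iron-sulphur or beta-grasp domains. Of these 16 rows 10 had a negative log2 difference, as did 11462 of all 20174 genes tested. The median of the rows was -0.42 (all genes -0.08). At an unadjusted p under 0.05, 1 was higher (6.25%, against 7.995% of all genes tested) and 4 were lower (25.0%, against 11.97%). The leaf ferredoxin gene Fd1 stood at 161 and 85.9 FPKM against 207 and 117 FPKM, with overlap (-0.40, limma adjusted p = 0.597). The leaf-type reductase genes OsLFNR1 (-0.52) and OsLFNR2 (-0.65) also overlapped between the lines. The summed leaf markers, 24200 and 12800 FPKM against 36600 and 19700 FPKM, were likewise lower on average in OE13-2KR/oswox13-1 with overlap, and their part in these rows was not tested. Not every marker went that way: the Rubisco activase row OsRcaII stood at 2460 and 1200 FPKM against 1990 and 953 FPKM, also with overlap. OsFdC1, a ferredoxin-like gene, stood at 32.2 and 13.9 FPKM against 51.6 and 51.9 FPKM (log2 difference -1.25, limma adjusted p = 0.213), and Os05g0157300 stood at 13.2 and 6.32 against 24.6 and 25.2 FPKM (-1.35, limma adjusted p = 0.194). OsFdC2, at 20.2 and 6.08 against 27.4 and 33.4 FPKM (-1.35, limma adjusted p = 0.246, and -0.56 without OE13-2KR/oswox13-1 replicate 2), and Os04g0412200, at 3.63 and 1.88 against 5.99 and 5.45 FPKM, were the others. All 4 were lowest in OE13-2KR/oswox13-1 replicate 2, and without that library the differences of OsFdC1 and Os05g0157300 were -0.67 and -0.87. The reductase fragment row Os07g0147900 ran against the group at 58.4 and 63.7 FPKM against 36.4 and 39.3 FPKM.

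Genes that release or store ammonium and amino groups were mixed. Of all 20174 genes tested, 11462 had a negative log2 difference, the median was -0.08 and 11.97% were lower at an unadjusted p under 0.05. The counts in this paragraph stand beside those shares. Of 9 tested glycine cleavage and serine hydroxymethyltransferase rows, 7 were negative, with a median of -0.43. Only 1 (11.1%, near the share of all genes) was lower at an unadjusted p under 0.05, Os02g0170100, at 4.39 and 3.11 FPKM against 8.14 and 8.78 FPKM. Of 5 glutamate dehydrogenase rows 4 were negative, and Os07g0238700 stood at 39.7 and 28.9 FPKM against 52.3 and 60.3 FPKM (log2 difference -0.71, SE 0.22, limma adjusted p = 0.212, and -0.49 without OE13-2KR/oswox13-1 replicate 2). In the GABA shunt, which turns glutamate into succinate, rows went both ways. The glutamate decarboxylase gene GDCi stood at 63.6 and 62.3 FPKM against 41.0 and 26.4 FPKM (0.91, limma adjusted p = 0.197), while the GABA transaminase row Os10g0213100 stood at 23.9 and 19.1 FPKM against 40.4 and 45.5 FPKM (-0.97, SE 0.20, limma adjusted p = 0.187). The decarboxylase genes OsGAD1, at 58.2 and 110 FPKM against 68.1 and 41.0 FPKM (0.59, limma adjusted p = 0.426), and OsGAD3 (-0.17) overlapped between the lines. P5CS2, of proline synthesis from glutamate, stood at 20.5 and 33.4 FPKM against 16.0 and 9.65 FPKM (1.01, SE 0.34, limma adjusted p = 0.218). Its difference was 0.68 without OE13-2KR/oswox13-1 replicate 2 and also without OE13 replicate 2. OsARG, the arginase gene, stood at 25.7 and 43.6 FPKM against 18.8 and 18.2 FPKM (0.82, limma adjusted p = 0.223, and 0.45 without OE13-2KR/oswox13-1 replicate 2). OsStr14, of molybdenum cofactor synthesis, which nitrate reductase needs, stood at 11.5 and 7.9 FPKM against 15.6 and 17.5 FPKM (-0.73, limma adjusted p = 0.216, and -0.49 without OE13-2KR/oswox13-1 replicate 2). In the same group the CNX2-like row Os12g0507000, named after its values were seen, stood at 50.4 and 35.1 FPKM against 21.0 and 30.5 FPKM (0.71, limma unadjusted p = 0.0487). Both asparagine synthetase rows were negative, with a median of -0.30 and 0 at an unadjusted p under 0.05.

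**Figure D5:**
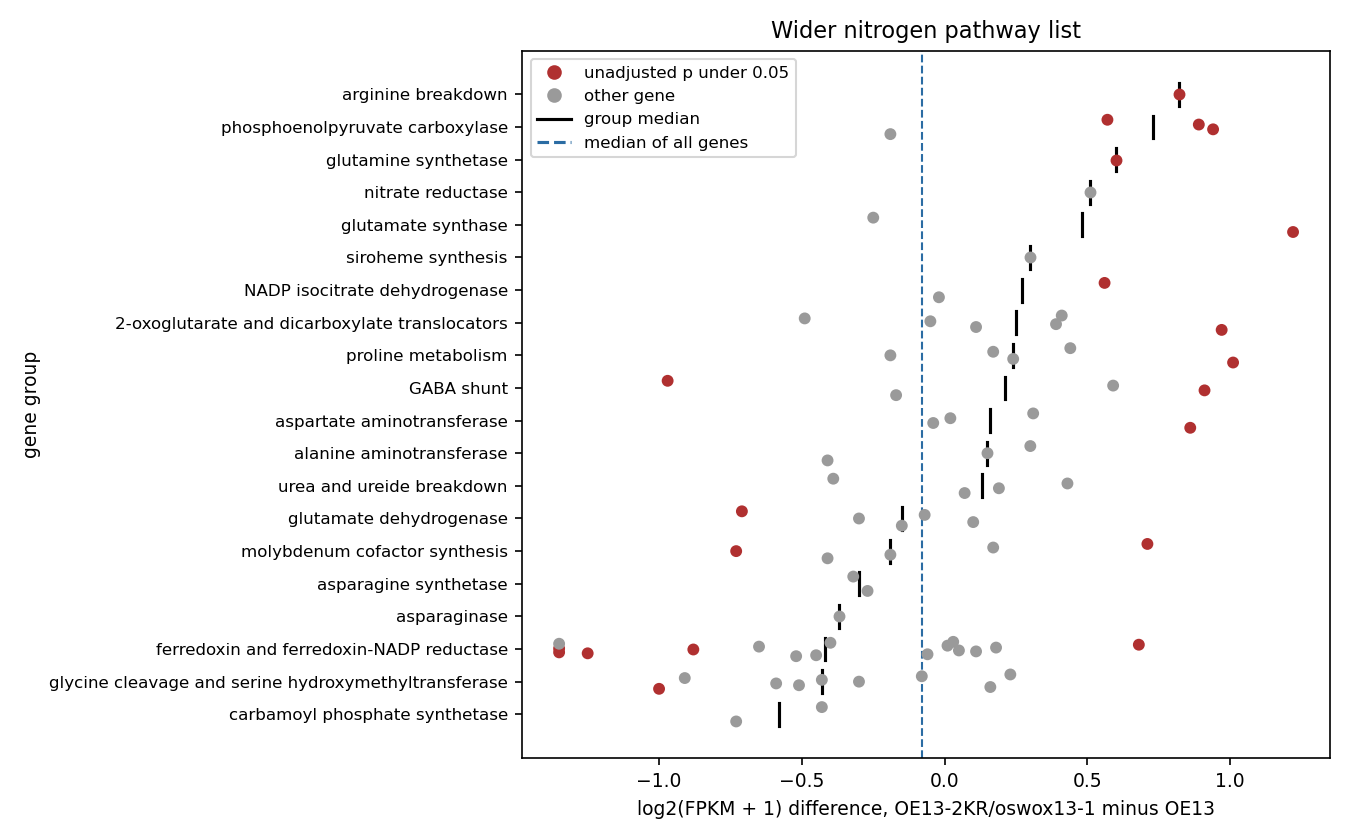
Difference in log2(FPKM + 1), OE13-2KR/oswox13-1 minus OE13, of the 78 tested genes of the wider list, by group, with 1 point per gene, a black tick for the group median and a dashed line at the median of all genes, -0.08. Group medians run from 0.73 for the phosphoenolpyruvate carboxylases, among groups of at least 4 genes, to -0.43 for glycine cleavage and serine hydroxymethyltransferase.

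The authors' deposited table of genes marked up holds 1207 genes. Of these, 1112 carry 1 identifier that is also in the FPKM table, and 1107 of the 1112 had the higher mean FPKM in OE13. None of the 8 genes is among them, NiR included. As the list holds almost only genes higher in OE13, it says nothing on AlaAT1 and GS1;1, which stood higher in the other line. Genes marked down were not used. From the wider list it holds 5 genes, all in the ferredoxin group. In the authors' deposited table OsFdC1 has a log2 fold change of 0.74 and an adjusted p-value of 0.568, and Os04g0412200 has 0.92 and 0.291.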

How the data were processed

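Leaf RNA of 2 lines, with 2 libraries each, was sequenced as paired ends, per the labels' protocols. The molecule is labelled genomic DNA, but the protocol is one for RNA, so the values were read as RNA-seq. Per the file headers, the authors deposited 1 FPKM value for each gene in each library. The sources used here do not give the tool that computed FPKM. Per the submitters' processing notes, the build is IRGSP 1.0, on which the coordinates are taken to lie, and the tools are DESeq2 1.38.3, featureCounts 2.0.0 and HISAT2 2.2.1, each without a stated role. Deposited by the authors as well were log2 fold changes, p-values and a linear fold ratio for genes marked up, per the file headers, which were copied for named genes. Genes marked down were not used here, and 11 unlabelled value columns were not used.

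A count model had been planned in case of counts, and the values are FPKM, so the planned fallback was used: limma 3.58.1 with trended variance in R 4.3.3, fitted to log2(FPKM + 1) of the 20174 genes that averaged at least 1 FPKM, with 2 residual and 3.30 prior degrees of freedom and Benjamini-Hochberg adjustment, after a test on simulated data. Low FPKM values showed no whole-read steps, which leaves depth unknown, and counting intervals are not given. Differences on this scale understate those of low genes.

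Members and lists were chosen with earlier results of these data known. The words that pick the wider list were corrected after the descriptions were read, because some matched unrelated genes. All 8 members are named. From the wider list, the rule named genes with an adjusted p under 0.05, the 20 others with the smallest p and the other isoforms of the members' enzymes. Amt was named as the gene nearest to GS2 in pattern. Outside the rule are Fd1, OsLFNR1, OsLFNR2, OsISC21, OsGAD1, OsGAD3, PEPC-2, Os01g0248400, Os06g0611900, OsGDCH and Os12g0507000. Alternatives were a pseudocount of 0.1, no filter, a mean FPKM of at least 5, median-ratio and quantile scaling, no variance trend, a replicate block and leaving out each library.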

Additional observations from a re-analysis of the deposited data

How the results depend on the processing

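With 2 libraries per line, single libraries set many values. NiR, GS1;1, GS2, AlaAT1 and Os01g0682001 kept their sign under every alternative tried. Leaving out 1 library gave 803 to 1579 higher and 1035 to 3392 lower genes at an unadjusted p under 0.05, and 0 to 0 at an adjusted p. The adjusted count was 0 without a filter, 2 with quantile normalisation and 0 with the replicate block. Replicate numbers are shared between the lines. Across the tested genes, deviations of the same replicate number in the 2 lines had r = -0.0915, which does not settle pairing for single genes. With the replicate block the SE of GS2 fell from 0.40 to 0.19 and that of Fd-GOGAT from 0.40 to 0.21. The SE rose for NiR (0.26 to 0.28), GS1;1 (0.17 to 0.19) and AlaAT1 (0.19 to 0.21). With the replicate block 1 member was higher, GS1;1 being lost (unadjusted p = 0.0533, limma), and 2 lower, GS2 joining NiR (log2 difference -0.59, SE 0.19, unadjusted p = 0.0339, limma adjusted p = 0.289), and with 1 library left out 1 to 2 were higher and 0 to 1 lower, 0 without OE13 replicate 1. Signs turned for NIA1 (0.0014 with pseudocount 0.1, 0.06 median-ratio, 0.15 quantile, -0.63 to 0.59 with 1 library left out), GS1;2 (0.02 quantile, -0.52 to 0.26), the NADH-GOGAT1 row (0.07 median-ratio, 0.11 quantile, -0.22 to 0.18), Fd-GOGAT (-0.25 to 0.73), OsGLT2 (-0.67 to 0.17), OsAlaAT2 (-1.02 to 0.21), ALT-2 (-0.43 to 0.73) and the NADH-GOGAT1 to Fd-GOGAT ratio (-0.97 to 0.44). The cause was not tested. Read depth is unknown, so what it limits cannot be given.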
